A study of Mus musculus with 4 samples.

Results

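The genes described here are 10 regulators of the passage from G1 into S phase: the D-type cyclins Ccnd1, Ccnd2 and Ccnd3, their kinase Cdk6, the kinase inhibitor Cdkn1b, the E-type cyclins Ccne1 and Ccne2, and the transcription factors E2f1, E2f3 and E2f7. They were chosen by name, and every m6A site that the deposited tables list under those names was taken. This gave 970 positions in 10 genes, of 1076788 positions in the whole series, of which 833043 lie inside 20001 genes. m6A was read by GLORI, a chemistry that converts unmethylated adenosine to a base read as G and leaves m6A read as A, so that the methylation level of a position is its A reads as a share of its A and G reads. PolyA RNA was taken from mouse retinal organoids at day 6, grown from an Rx:GFP line with FKBP12F36V-HA joined to the C-terminus of endogenous Mettl3, in medium with AGN. The degron tag makes the protein a target of dTAG13, which recruits it for degradation, and untreated and treated organoids alike carry it. One group received 125 nM dTAG13 for 8 h (2 libraries) and the other received none (0 h, 2 libraries), with collection at the same time. The genotype field names Mettl3, Mettl4, Mettl5 and Mettl6 in the 4 samples in turn, whereas the growth protocol names Mettl3 throughout; the tag was taken to be on METTL3. The labels do not say whether the replicates were separate cultures or whether the line is a single clone, so the p-values measure only the spread between these libraries, which may be technical.

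In early G1, D-type cyclins bind CDK4 or CDK6 and begin the phosphorylation of the RB proteins, which hold E2F transcription factors in check. Released activator E2Fs switch on the E-type cyclins, which with CDK2 complete RB phosphorylation and start DNA replication, while CDKN1B (p27) binds and restrains the cyclin-CDK complexes. METTL3 is the catalytic subunit of the methyltransferase that deposits most m6A on mRNA, and in retinal progenitors G1 regulators help to set the balance between further division and differentiation.

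The tables list only called sites. No listed position has a total of A and G below 15 reads, fewer than 5 reads with A or a level under 10%, so an unlisted one may be unmethylated, below these limits or uncovered. The untreated tables hold 335607 and 350462 sites, the treated ones 220034 and 263069, and the median listed site has 75 to 91 reads. Gene coverage, a value per gene that the authors did not normalise to depth, had a median of 99.2 and 103 in the untreated replicates, of 82.4 and 111 in the treated ones. Coverage and conversion of a gene are given only where a library lists a site in it. Their medians and fits therefore cover the 12520 genes with listed sites in all 4 libraries. Median conversion, the share of a gene's A that is read as G, was 95.8% and 96.2% in untreated replicates 1 and 2, 96.9% and 96.7% in the treated ones, and the part of this shift in the number of listed sites was not tested. As a check of the labelled tissue, 8 of 8 retinal progenitor markers had listed sites in all 4 libraries, with a summed gene coverage of 3707 and 4141 untreated and 2527 and 3956 treated. All 4 pluripotency markers were also listed in every library (summed coverage 867 and 883 untreated, 615 and 799 treated), as were 2 of 4 neuronal markers and 1 of 4 endoderm and mesoderm markers, with no site in Tbxt. In bulk RNA, fewer cells of a type and less RNA per cell cannot be told apart, and the part of cell makeup in the values that follow was not tested.

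Fewer m6A sites were listed in the G1/S genes after dTAG13, in about the proportion seen over all genes. The 10 genes together had 316.5 ± 10.6 listed sites untreated (SD, n = 2), 324 of them in the higher library, and 218.5 ± 31.8 with dTAG13, from 196 and 241. Both treated libraries were below both untreated ones, and the ratio of the means was 0.690. The same ratio over all genes was 0.714, and after scaling each library to its total of sites inside genes the ratio of the G1/S genes was 0.964. Such scaling removes any drop shared by all genes. The scaled values here and below therefore only compare these genes with the total and do not show that their sites were kept. Their share of all sites inside genes was 0.119%, 0.119%, 0.110% and 0.119% in untreated replicates 1 and 2 and dTAG13 replicates 1 and 2; this order of the 4 libraries is kept in every series of values below.

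Gene by gene, the treated libraries were both below the untreated ones in 6 of 10 genes (Ccnd1, Ccnd2, Cdkn1b, E2f1, E2f3 and E2f7), where 40.9% of all 15415 genes tested showed this pattern. In 0 of 10 were both above, against 4.63% of genes. The number of listed sites per gene was tested with edgeR's quasi-likelihood test over all genes, with Benjamini-Hochberg adjustment and no scaling between libraries. It called 829 genes lower, which is 5.38% of those tested, and 5 higher (0.0324%); 0 of the 10 G1/S genes were called. At an unadjusted p under 0.05, 5 of the 10 were lower against 20.7% of genes, and 0 were higher against 0.649%. The median log2 change was -0.65 over the 10 genes and -0.52 over all genes tested. Scaling to the total of genic sites took the median of all genes to -0.03 and that of the 10 genes to -0.17, and left 22 genes called lower and 35 higher, none of them among the 10. The log2 change was below 0 in 9 of the 10 genes without scaling and in 7 with it. The calls over all genes went to 0 when edgeR's robust moderation was not used. Leaving out a library leaves 1 library in its group, so calls of those fits are not compared. In those fits the median log2 change was -0.44 to -0.64 over all genes and -0.56 to -0.70 over the 10 genes.

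**Figure D1:**
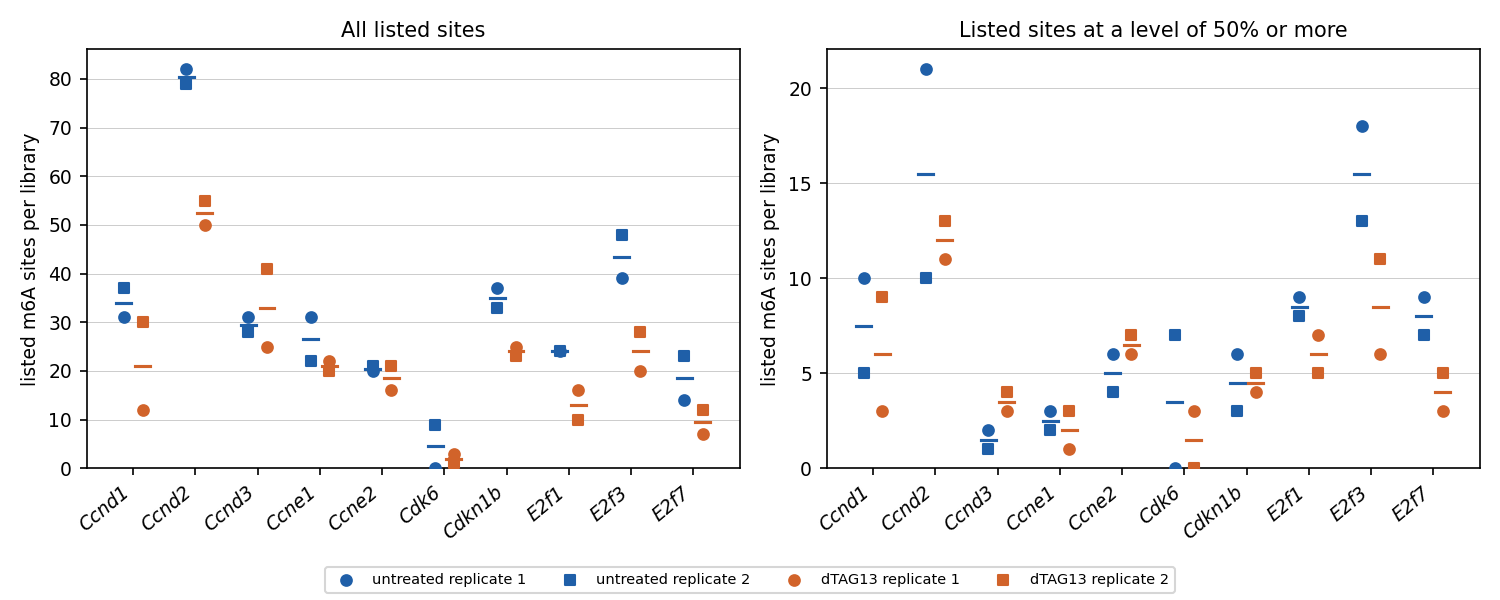
Number of listed m6A sites per library in each of the 10 G1/S genes, for all sites (left) and for sites at a level of 50% or more (right). Circles are replicate 1, squares replicate 2, blue is untreated, orange is 8 h dTAG13, and bars are the means of 2 libraries; in the left panel Ccnd2 has 82 and 79 untreated sites against 50 and 55 treated ones, whereas the groups of Ccnd3 overlap.

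Cyclin D2, a partner of CDK4 and CDK6, carried the most listed positions of the 10 genes, 246 between chr6:127102144 and chr6:127127963 on the minus strand. Ccnd2 had 82, 79, 50 and 55 listed sites in the 4 libraries. The replicates of each group lay close together and the groups did not overlap, with a log2 change of -0.62 that missed the threshold in edgeR's test (adjusted p = 0.0633) and was -0.13 scaled to the genic total. Gene coverage was 230, 244, 206 and 238, a log2 difference of -0.02 ± 0.21 (SE) after centring on the median gene (limma, adjusted p = 0.978), so the groups overlapped in coverage. For the sites at a level of 50% or more the counts were 21, 10, 11 and 13, and here the groups overlapped as well.

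Individual Ccnd2 positions recurred little between libraries: 228 of 246 were listed once, 16 in 2 libraries and 2 in 3. The site with the highest mean untreated level among those with at least 50 reads in both was chr6:127106766, at 35.3% of 136 reads and 52.6% of 114 reads, unlisted in both treated libraries. A neighbouring position, chr6:127106629, stood at 51.7% of 333 reads and 33.3% of 387 reads and was likewise unlisted with dTAG13. Replicates could differ widely at one position. At chr6:127106402 the untreated levels were 14.8% of 88 reads and 60.1% of 228 reads. The 2 positions listed in 3 libraries were both highest in dTAG13 replicate 1. These were chr6:127103518, at 16.5%, 30.2% and 51.9% in untreated 1, untreated 2 and dTAG13 1 (91, 86 and 108 reads), and chr6:127106532, at 11.4%, 22.7% and 11.3% in untreated 2, dTAG13 1 and dTAG13 2 (396, 238 and 213 reads).

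Cyclin D1, the D-type cyclin most closely tied to growth-factor signalling and abundant in retinal progenitors, had 98 listed positions between chr7:144483728 and chr7:144493247 on the minus strand. Ccnd1 had 31, 37, 12 and 30 listed sites. The second treated library lay 1 site below the lower untreated library and the first far below it, so the treated pair spread widely (21 ± 12.7 against 34 ± 4.24, SD, n = 2). The log2 change was -0.69 with an adjusted p of 0.217 (edgeR), and -0.21 scaled to the genic total. Sites at 50% or more overlapped between the groups (10, 5, 3 and 9). Coverage as deposited was 138, 143, 124 and 175, and the groups overlapped. Relative to the median gene of each library it was 1.39, 1.39, 1.51 and 1.58, higher in both treated libraries. The centred log2 difference was 0.15 ± 0.20 (limma, adjusted p = 0.755).

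All 4 Ccnd1 positions listed in both untreated libraries were unlisted with dTAG13. The highest of them was chr7:144483857, 129 bases upstream of the 3′-most listed site of the gene, at 56.5% of 62 reads and 53.2% of 77 reads, and its replicates agree within counting error. The other 3 lay lower: chr7:144484214 at 18.3% of 142 and 15% of 60 reads, chr7:144484637 at 40.5% of 232 and 14.1% of 206 reads, and chr7:144485337 at 10.2% of 187 and 13.4% of 119 reads. The opposite pattern occurred once, at chr7:144487838, which was listed only with dTAG13, at 15.6% of 192 reads and 18.3% of 635 reads.

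Cyclin D3, the third D-type cyclin, was the only one of the 10 genes with a higher mean number of listed sites with dTAG13, through a single treated library. Ccnd3 had 31, 28, 25 and 41 sites among 103 positions from chr17:47904465 to chr17:47910609 on the plus strand. The groups overlapped, with a log2 change of 0.16 (edgeR, adjusted p = 0.815) that became -0.24 without dTAG13 replicate 2 and 0.64 scaled to the genic total. Ccnd3 was also the only gene of the 10 with more sites at 50% or more in both treated libraries (2, 1, 3 and 4), a pattern seen in 7.14% of 12317 genes. Coverage ran the other way. It was 471, 422, 197 and 350, lower in both treated libraries, with a centred log2 difference of -0.68 ± 0.24 that missed the adjusted threshold (limma, adjusted p = 0.364). Its conversion was 96.0%, 96.0%, 95.9% and 93.9%, the lowest value being that of the library with the most sites.

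Of the D-type cyclins, only Ccnd3 had a position listed in all 4 libraries. This was chr17:47908966, at 26.9%, 16.5%, 15.4% and 33.9% of 335, 321, 306 and 301 reads. The highest and the lowest value both came from treated libraries. The group means of the levels differed by +2.93 percentage points (quasi-binomial site test, which weights libraries by reads, adjusted p = 0.964). The sign of that small difference turned without untreated replicate 2 (-2.24 points) and without dTAG13 replicate 2 (-6.33 points). Near the 3′ end, chr17:47910554 had the deepest coverage of the named sites of this gene, with 10.9% of 1048 reads and 18.5% of 1116 reads untreated and 14.6% of 843 reads in dTAG13 replicate 2. Farther upstream, chr17:47910053 had 20.6% of 528 and 12.5% of 377 reads untreated and 26.2% of only 42 reads in dTAG13 replicate 1. At both, a listed treated value lay between or above the untreated ones. A further 3 positions were listed in both untreated and in neither treated library, all below 20%: chr17:47908953 (11.8% of 364 and 10.7% of 270 reads), chr17:47910322 (11.2% of 876 and 17.8% of 865 reads) and chr17:47910576 (10.4% of 855 and 18.1% of 763 reads). Another 3 showed the reverse; those with 50 reads or more were chr17:47904487 (17.8% of 438 and 14.8% of 674 reads) and chr17:47908396 (17.0% of 282 and 14.6% of 425 reads).

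CDK6, the kinase that D-type cyclins activate, was barely measurable. Cdk6 had 0, 9, 3 and 1 listed sites among 13 positions, spread over 186746 bases from chr5:3394127 to chr5:3580872 on the plus strand, and 0 positions were shared by any pair of libraries. Its coverage was not given in untreated replicate 1, which lists 0 of its sites, and was 35.8, 50.4 and 89.6 in the others. Cdk6 therefore entered no coverage or conversion fit. Sites at 50% or more numbered 0, 7, 3 and 0, and all of these stood at 90% or more. They rested on few reads, with a median of 36 reads per listed site in untreated replicate 2 and 23 in dTAG13 replicate 1. The 1 untreated site with at least 50 reads was chr5:3578443, at 20.4% of 54 reads (Wilson 95% interval 11.8% to 32.9%). The fitted log2 change of -1.12 in site number (edgeR, adjusted p = 0.594; -0.64 scaled) rested on untreated replicate 2, since the other untreated library lists 0 sites.

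CDKN1B (p27) inhibits cyclin E-CDK2 and holds cells in G1. Its gene had the only tested site of the 10 genes at which both treated levels lay below both untreated ones. The quasi-binomial test did not call that site. Only Fisher's exact test on pooled reads did, which leaves out the spread between replicates. Cdkn1b had 37, 33, 25 and 23 listed sites among 110 positions between chr6:134897481 and chr6:134902446 on the plus strand. Both treated libraries were lower, by a log2 change of -0.54 (edgeR, adjusted p = 0.304) that was -0.06 scaled to the genic total. The counts at 50% or more, 6, 3, 4 and 5, overlapped. Coverage was 565, 641, 317 and 417, again lower in both treated libraries, with a centred log2 difference of -0.65 ± 0.20 (limma, adjusted p = 0.363). Fewer reads and fewer listed sites thus occurred together in this gene, and the part of coverage in the number of sites was not tested.

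At chr6:134897760, listed in all 4 libraries, the level of Cdkn1b was 41.0%, 27.6%, 17.6% and 10.7% of 424, 1379, 454 and 1008 reads. Both treated values lay below both untreated ones, with means of 14.2% ± 4.88 and 34.3% ± 9.53 (SD, n = 2) and a difference of -20.1 percentage points. The quasi-binomial test, which weighs the spread between replicates over all 2321 sites measured in the 4 libraries, gave p = 0.0194 and an adjusted p of 0.348. Counting reads alone, as in Fisher's exact test on pooled libraries, the adjusted p was 1.29e-33, which treats reads as independent and leaves out the spread between replicates. A position near it, chr6:134897738, was listed at 34.6% of 315 reads and 13.6% of 974 reads in the untreated libraries and in neither treated library. In both positions the second untreated library was the lower and by far the deeper. Toward the 3′ end, chr6:134901846 was at 21.4% of 541 and 35.5% of 530 reads untreated and 20.0% of 100 reads in dTAG13 replicate 1.

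**Figure D2:**
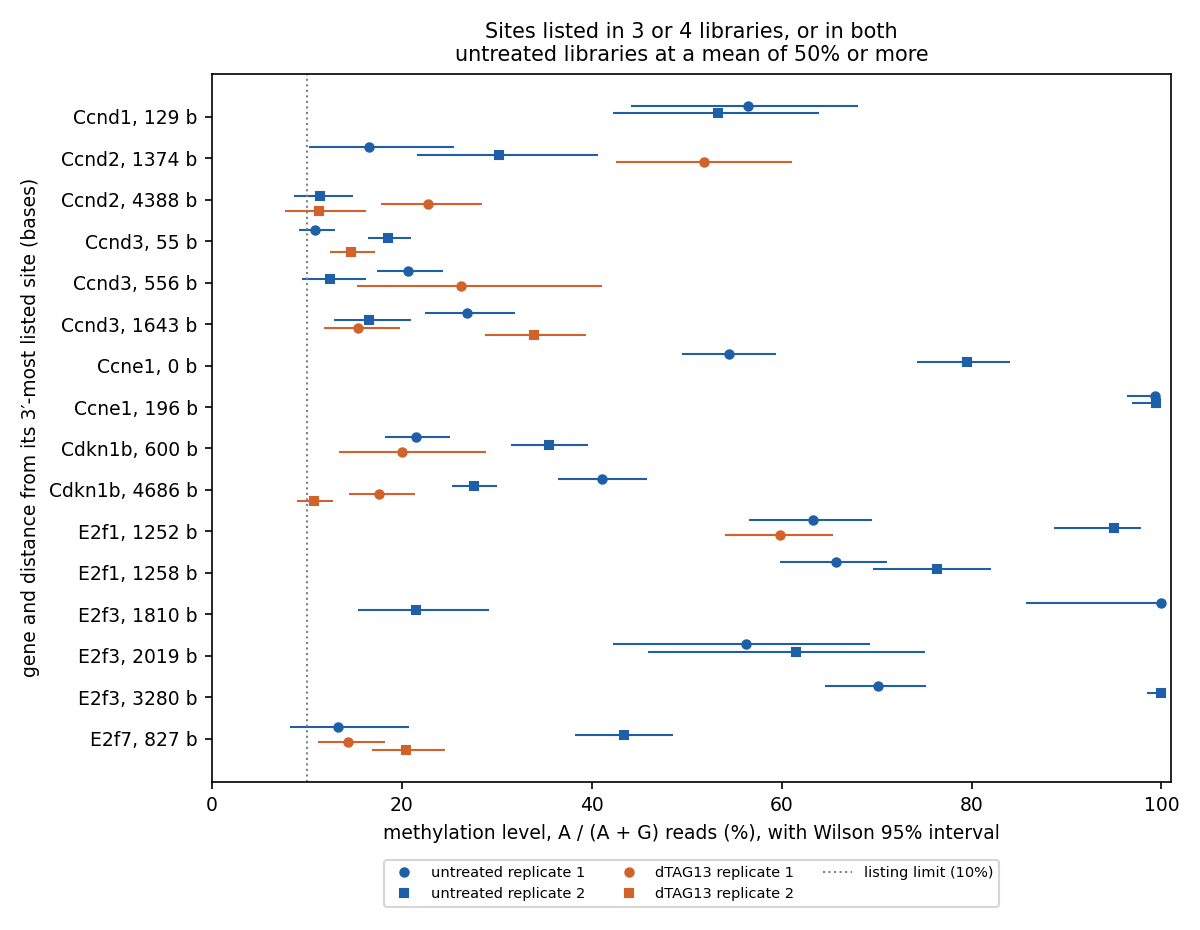
Methylation level (%) with Wilson 95% interval at the 16 member positions that are listed in 3 or 4 libraries, or in both untreated libraries at a mean of 50% or more; rows give the gene and the distance in bases from its 3′-most listed site. A missing symbol is an unlisted position, the dotted line is the 10% listing limit, and only the Cdkn1b position at 4686 bases has all 4 symbols with both treated values (17.6% and 10.7%) below both untreated ones (41.0% and 27.6%).

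Cyclin E1, which with CDK2 drives entry into S phase, held the most completely methylated reproducible site of the 10 genes. At chr7:37797667, 196 bases upstream of the 3′-most listed site, the level was 99.4% in both untreated libraries, of 154 reads (Wilson 95% interval 96.4% to 99.9%) and 179 reads (96.9% to 99.9%). The 3′-most listed site itself, chr7:37797471, stood at 54.5% of 389 reads and 79.5% of 259 reads, a spread between replicates beyond counting error. Both were unlisted in both treated libraries, as was chr7:37797787, at 17.5% of 354 and 11.4% of 298 reads. Since an unlisted position carries no read number, the level of these sites after dTAG13 is unknown. The reverse pattern was seen at chr7:37799215 (10.2% of 196 and 16.0% of 225 reads) and chr7:37799295 (26.4% of 239 and 28.3% of 470 reads), each listed in both treated and in neither untreated library.

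Over the whole gene Ccne1 had 31, 22, 22 and 20 listed sites among 84 positions between chr7:37797471 and chr7:37806756 on the minus strand. The groups touched at 22, and the log2 change was -0.33 (edgeR, adjusted p = 0.619), turning to 0.15 when scaled to the genic total. Its sites at 50% or more were few (3, 2, 1 and 3). Coverage was 211, 173, 148 and 230, with a centred log2 difference of 0.03 ± 0.23 (limma, adjusted p = 0.968), and the lowest and the highest value were both from treated libraries.

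Cyclin E2, the paralogue of cyclin E1, showed near-equal numbers of sites in the 2 groups and little sharing of positions. Ccne2 had 20, 21, 16 and 21 listed sites among 75 positions from chr4:11192701 to chr4:11204690 on the plus strand, a log2 change of -0.15 (edgeR, adjusted p = 0.881). Its sign turned with scaling (0.33), with only sites of at least 50 reads or at 20% or more (0.20 in each) and without dTAG13 replicate 1 (0.03). No position was listed in both untreated or in both treated libraries, and 3 were listed once in each group. The highest untreated level with at least 50 reads was at chr4:11204022, 74.5% of 102 reads in untreated replicate 2, and the same position read 100% of 15 reads in dTAG13 replicate 1. Sites at 50% or more numbered 6, 4, 6 and 7, and coverage as deposited was 72.0, 89.8, 73.5 and 123. Both quantities overlapped between the groups. Relative to the median gene of each library, coverage was 0.73, 0.87, 0.89 and 1.11, higher in both treated libraries. The centred log2 difference was 0.32 ± 0.23 (limma, adjusted p = 0.569).

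**Figure D3:**
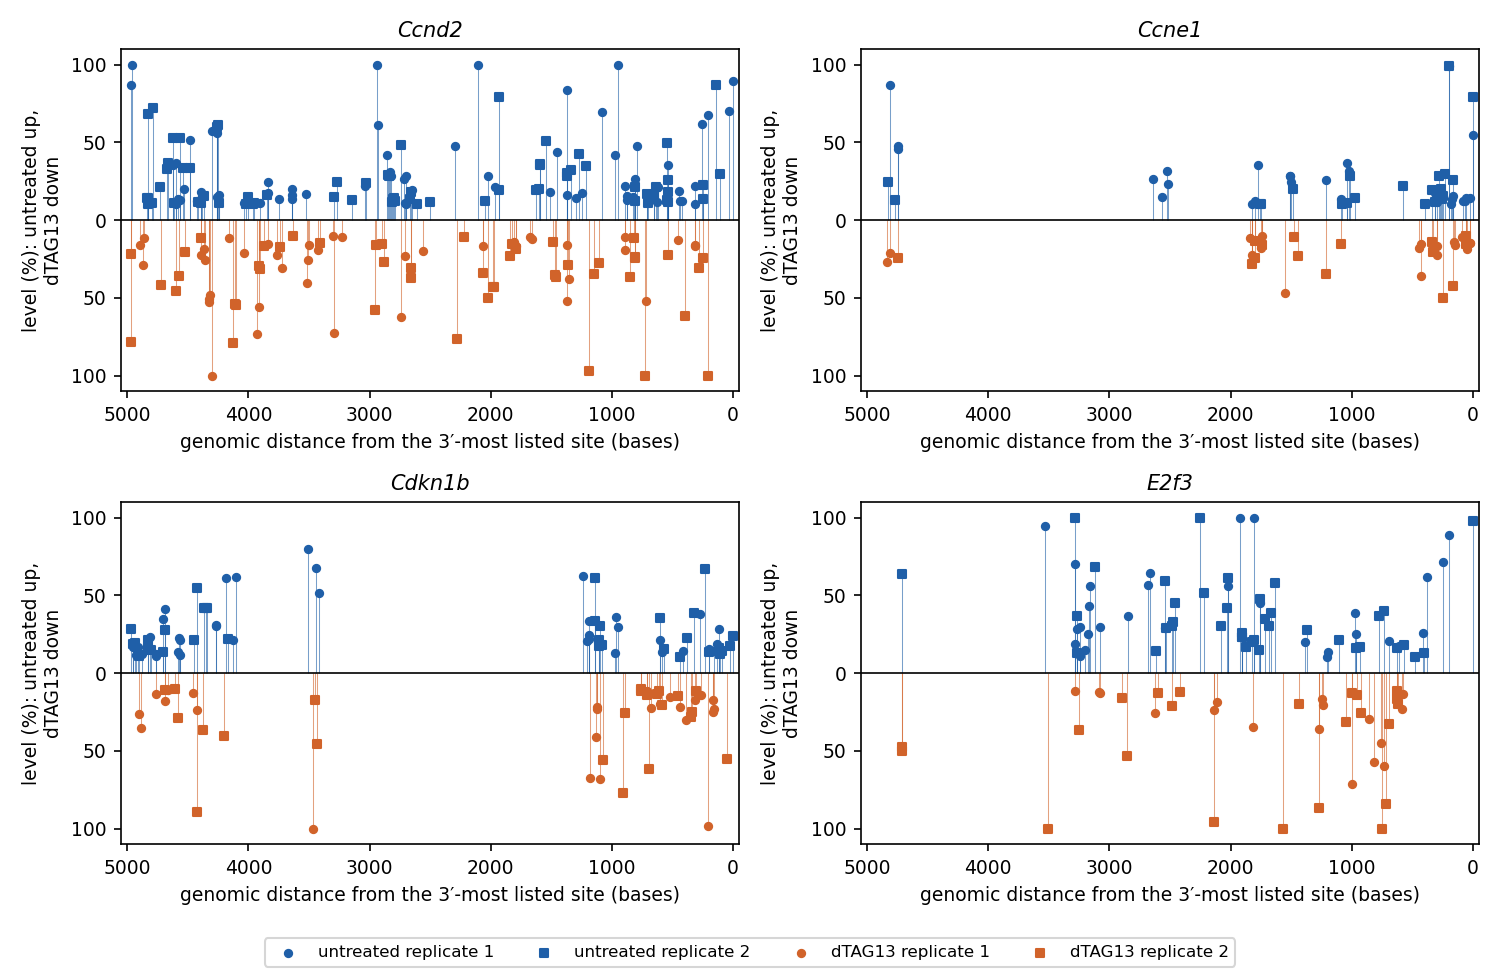
Listed sites of Ccnd2, Ccne1, Cdkn1b and E2f3 within 5 kb of the 3′-most listed site, with genomic distance in bases on the x axis and methylation level (%) on the y axis, untreated libraries upward and dTAG13 libraries downward. In Ccne1 the 99.4% site at 196 bases has no treated counterpart, and in all 4 genes most positions are listed in a single library.

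Among the E2Fs, E2F1 and E2F3 activate S-phase genes and E2F7 is an atypical member that represses them; all 3 had fewer listed sites in both treated libraries, and none passed the adjusted threshold. E2f3 had 39, 48, 20 and 28 sites among 123 positions from chr13:30090590 to chr13:30169936 on the minus strand, a log2 change of -0.85 (edgeR, adjusted p = 0.0682). E2f1 had 24, 24, 16 and 10 among 67 positions from chr2:154401387 to chr2:154411660 on the minus strand, a log2 change of -0.88 (adjusted p = 0.186, edgeR). E2f7 had 14, 23, 7 and 12 among 51 positions from chr10:110583982 to chr10:110623156 on the plus strand, a log2 change of -0.95 (adjusted p = 0.227, edgeR). Scaled to the genic total, the log2 changes were -0.37 for E2f3, -0.39 for E2f1 and -0.47 for E2f7 (edgeR, adjusted p 0.727 to 0.828). They were also the only genes of the 10 with fewer sites at 50% or more in both treated libraries, a pattern held by 24.4% of genes. The counts were 18, 13, 6 and 11 for E2f3, 9, 8, 7 and 5 for E2f1 and 9, 7, 3 and 5 for E2f7. edgeR called 0 of the 10 genes on this measure, 0 at an unadjusted p under 0.05 (7.84% of genes lower, 1.05% higher), and 1 of 12317 genes in all (0.00812%); the smallest adjusted p among the 10 was that of E2f3, 0.549.

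Coverage of the E2F genes gave no common direction. E2f3 was at 91.7, 129, 92.2 and 111 (centred log2 difference -0.02 ± 0.24; limma, adjusted p = 0.977), and its groups overlapped. E2f1 was at 123, 129, 97.3 and 122, with both treated libraries lower before and after centring (-0.12 ± 0.20, limma, adjusted p = 0.808). E2f7 was at 85.5, 108, 91.0 and 169, with overlap before centring. Relative to the median gene of each library E2f7 was at 0.86, 1.05, 1.11 and 1.52, higher in both treated libraries (0.45 ± 0.25, limma, adjusted p = 0.473).

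Several high sites of E2f3 and E2f1 were listed in both untreated libraries. In E2f3, 7 positions were so listed and 7 of these were unlisted in both treated libraries. The highest of those with at least 50 reads was chr13:30093870, at 70.1% of 278 reads and 100% of 254 reads (Wilson 95% interval 98.5% to 100% for the second), with chr13:30093857 beside it at 28.2% of 316 and 36.6% of 273 reads. The further ones with at least 50 reads were chr13:30091553 (25.3% of 83 and 16.2% of 117 reads) and chr13:30093128 (28.8% of 104 and 59.3% of 91 reads). The replicates thus differed widely at some of the same positions. One E2f3 position, chr13:30091859, went the other way, at 36.2% of 80 and 86.8% of 53 reads in the treated libraries and unlisted in the untreated ones.

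In E2f1 the named sites were clustered. At chr2:154402645 the untreated levels were 65.7% of 268 reads and 76.4% of 178 reads, and at chr2:154402693 they were 16.9% of 478 and 27.4% of 186 reads, both unlisted with dTAG13. At the adjoining chr2:154402639 the level was 63.3% of 207 reads and 94.9% of 99 reads untreated, and 59.9% of 279 reads in dTAG13 replicate 1. That treated value lay close to the lower untreated one, so a high level was still listed there in 1 of 2 treated libraries.

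E2f7 had 1 position in all 4 libraries, chr10:110622329, at 13.3%, 43.3%, 14.3% and 20.4% of 113, 353, 378 and 417 reads. The treated values fell between the untreated ones. The group means of the levels differed by -11.0 percentage points (quasi-binomial test, which weights libraries by reads, adjusted p = 0.616). Fisher's exact test on pooled reads gave an adjusted p of 5.02e-12, and without untreated replicate 2 the difference was +4.06 points. Its neighbour chr10:110622331 was listed in both treated libraries, at 13.2% of 379 and 11.8% of 407 reads, and in neither untreated one. In the 10 genes, 211 of 1070 listings (19.7%) lay within 5 bases of another listing in the same gene and library, against 18.2% of listings inside all genes.

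Across the 10 genes, 882 of 970 positions (90.9%) were listed in a single library, against 91.4% of positions inside genes. A further 79 were listed in 2 libraries, 6 in 3 and 3 in 4. The untreated pair shared 31 positions, the treated pair 12, and pairs of 1 untreated and 1 treated library 14 to 21. All 31 positions of the untreated pair lay within 5 kb of the 3′-most listed site of their gene, as did 806 of the 970 positions (83.1%), and they fell in 8 genes. That reference site comes from these same data, and in Cdkn1b the listed positions span only 4966 bases, so all of them had to lie within 5 kb. The share over all genes was not computed, and no clustering is read from these counts. Of the 31 positions of the untreated pair, 23 (74.2%) were listed in neither treated library, where the share over all genes was 80%. The Wilson 95% interval of that 74.2%, 56.8% to 86.3%, covers counting error only. It takes positions as independent, although they share genes and libraries. Turned around, 8 of the 12 positions of the treated pair (66.7%) were listed in neither untreated library, against 68.8% over all genes. Non-recovery in the other group was therefore frequent in both directions. At a mean untreated level of 50% or more, 7 of 8 positions were unlisted with dTAG13, beside 85.1% over all genes.

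Levels at shared positions often differed between replicates by more than counting error. The Wilson intervals of the untreated pair did not overlap at 18 of 31 positions (58.1%; 43.0% over all genes), and those of the treated pair at 4 of 12 (33.3%; 38.6%). The median absolute difference between replicates was 10.5 percentage points untreated and 5.95 treated, beside 9.67 and 8.28 over all genes. For the 57 positions listed in at least 1 library of each group, 18 had a lower and 38 a higher mean level with dTAG13, with a median difference of +2.93 points. Over all genes 43.1% of 44304 such positions were lower, with a median of +1.57 points; positions below the 10% limit are missing from these comparisons. The quasi-binomial test could be run at 3 positions of the 10 genes, those in Ccnd3, Cdkn1b and E2f7 above, and called 0 of them. Of all 2321 sites tested, which include sites outside genes, the test called 2.2% lower and 0.0862% higher. At an unadjusted p under 0.05 it found the Cdkn1b position lower, as 5.95% of sites, and no member position higher, against 3.4% of sites. A fit without 1 library leaves 1 library in its group, so the dependence of these calls on a single library could not be judged.

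High levels often rested on few reads. Member sites at 90% or more had a median of 26, 39, 24 and 43 reads in the 4 libraries, whereas those from 10% to 20% had 276, 206, 182 and 290.5. A level near 100% was therefore usually a thin measurement, and the Ccne1 site at 99.4% and the E2f3 site at 100% were among the deeper ones. The contrast was not particular to these genes. Over all sites inside genes the medians were 31, 31, 31 and 36 reads at 90% or more. From 10% to 20% they were 193, 189, 169 and 222 reads. Part of the contrast follows from the listing limits, since the minimum of reads with A demands more total reads at a low level. The size of that part was not tested. The median level of member sites was 27.4%, 23.1%, 23.5% and 28.7%, with the lowest and the highest median in different groups.

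**Figure D4:**
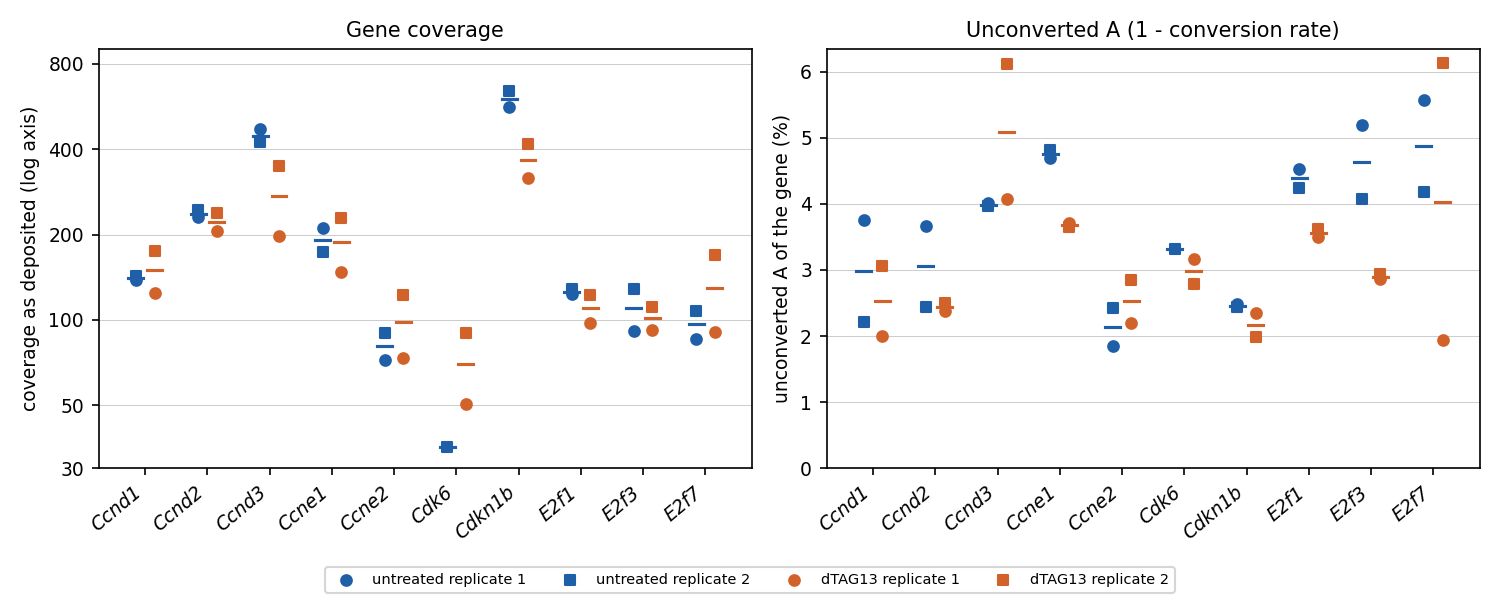
Gene coverage as deposited (left, log axis) and unconverted A, 100% minus the conversion rate (right, %), per library in the 10 G1/S genes, with bars at the means. Both treated libraries lie below the untreated ones in coverage for Ccnd3, Cdkn1b and E2f1, and the unconverted share of E2f3 is 5.2% and 4.1% untreated against 2.9% and 2.9% treated.

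Gene coverage, the available measure of RNA abundance, gave no call in these genes. Before centring, both treated libraries were lower in 3 of 9 genes with coverage in all libraries (Ccnd3, Cdkn1b and E2f1, against 28.1% of 12520 genes). In 0 of 9 were both higher (10.1%). Relative to the median gene of each library, both treated libraries were again lower in Ccnd3, Cdkn1b and E2f1 (29.2% of genes). On that scale both were higher in Ccnd1, Ccne2 and E2f7 (17% of genes). limma called 0 of 12520 genes. At an unadjusted p under 0.05, 2 of the 9 were lower (Ccnd3 and Cdkn1b) against 8.34% of genes, and 0 were higher against 4.4%; the smallest adjusted p over all genes was 0.363. The median centred log2 difference was -0.02 over the 9 genes and -0.07 over all genes.

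The gene-wide conversion rate is a summary over every A of a gene, so it also reads sites too weak to be listed, and it depends on the chemistry in each library. It was higher in both treated libraries for 4 of 9 genes, Ccne1, Cdkn1b, E2f1 and E2f3, as for 40.9% of all genes, and lower in both for Ccnd3 (6.05% of genes). E2f3 went furthest, at 94.8%, 95.9%, 97.1% and 97.1%, a log2 difference in the odds of unconverted A of -0.69 ± 0.29 (limma, adjusted p = 0.423). Ccne1 was at 95.3%, 95.2%, 96.3% and 96.4%, and E2f1 at 95.5%, 95.8%, 96.5% and 96.4%. Cdkn1b, at 97.5%, 97.6%, 97.6% and 98.0%, had the narrowest gap between the groups of these 4 genes. In the remaining genes the groups overlapped. limma called 0 of 12520 genes and put 0 of the 9 at an unadjusted p under 0.05, against 11.2% of genes lower and 1.06% higher in unconverted odds. The unconverted odds were lower with dTAG13 in 7 of 9 genes, but in 3 of 9 after centring on the median gene. Over all genes the median log2 change in these odds was -0.30 before centring and 0.03 after it.

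The wider G1/S list comprised 26 other genes, including the RB proteins, the remaining E2Fs and their dimer partners, and further CDKs and inhibitors. It had 547, 622, 416 and 413 listed sites, a ratio of treated to untreated of 0.709, beside 0.690 for the 10 genes and 0.714 for all genes. In site number 3 of 24 tested genes were lower (edgeR, adjusted p under 0.05), against 5.38% of all genes, and 0 were higher, against 0.0324%. The median log2 change was -0.45, beside -0.52 over all genes. Cdkn1a (p21), a CDK inhibitor related to Cdkn1b, had 27, 21, 5 and 7 sites, a log2 change of -1.98 (adjusted p = 0.0104). Lin9, a subunit of the complex that controls cell-cycle genes with the RB family and MYB proteins, had 15, 25, 6 and 5 sites (-1.84, adjusted p = 0.0252). Tfdp2, a dimer partner of E2Fs, had 40, 64, 24 and 29 (-0.97, adjusted p = 0.0283). Leaving out 1 library leaves 1 library in its group, so only log2 changes are given for it. They were -1.76 to -2.23 for Cdkn1a, -1.43 to -2.16 for Lin9 and -0.59 to -1.27 for Tfdp2. None of the 3 was called with scaling to the genic total. The scaled log2 changes were -1.50, -1.36 and -0.48 in the same order (edgeR, adjusted p 0.147, 0.280 and 0.543). Nor was any called without robust moderation, which left the log2 changes as they were (edgeR, adjusted p 0.265, 0.265 and 0.273). Lin9 and Tfdp2 were also lost with only sites of at least 50 reads (adjusted p 0.109 and 0.166), and Tfdp2 with only sites at 20% or more (log2 change -0.62, adjusted p 0.258), while Cdkn1a was called in both (0.0128 and 0.0271).

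No gene of that list passed on the other measures. Coverage of Cdkn1a was 248, 246, 117 and 87.2, a centred log2 difference of -1.21 ± 0.32 (limma, adjusted p = 0.363), so that its listed sites and its coverage were lower together. For Ccna2, the S-phase cyclin A2, coverage was 427, 428, 169 and 318 (-0.80 ± 0.24; limma, adjusted p = 0.363), while sites at 50% or more numbered 0, 1, 8 and 5 (edgeR, adjusted p = 0.253). Its coverage and its highly methylated sites therefore differed in opposite directions, as in Ccnd3. Fbxw7, part of the ubiquitin ligase that degrades cyclin E, had conversion rates of 95.0%, 93.7%, 97.4% and 97.5% (log2 odds -1.18 ± 0.29; limma, adjusted p = 0.369).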

How the data were processed

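The authors deposited 1 GLORI site table per library. Its deposited counts are A and G reads and A reads per site, and its deposited fractions are the methylation level, which matched the ratio of the counts within 0.0001 at 100% of sites, and the conversion rate of the gene. The coverage signal of a gene and the site p-values are also as deposited by the authors. Aligner and caller are not given in the sources used here. Per the submitters' processing notes the build is mm10, but 17 of 18 contig names carry the suffix of a later build and only 98 of 970 member positions (10.1%) fall inside the GRCm38 RefSeq interval of their gene. Coordinates are printed as listed with the build unsettled, and exon, intron, UTR and sequence context were not assigned.

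The 10 genes, the gene lists and the tests were chosen with earlier results of these data known. Groups came from the sample titles. Named sites were those listed in 3 or 4 libraries, those listed in both libraries of a group with at least 50 reads in each, and the highest untreated site of each gene. At most 5 genes of the wider list were named, those past a threshold and otherwise the smallest p per measure. With 2 libraries a group, an exact permutation test cannot go below p = 0.333, so models over all features were used. Numbers of listed sites were fitted with edgeR 4.0.16 (R 4.3.3; quasi-likelihood, robust moderation, equal library sizes, at least 4 sites over the libraries). Robust moderation together with edgeR's legacy fitting option was chosen after the default settings recovered none of the changed genes in simulated data. The alternative without robust moderation kept the legacy option. Levels were fitted with a quasi-binomial model moderated by limma 3.58.1 wherever all 4 libraries list a site at 20 reads or more. Printed level differences are between unweighted group means, whereas the model weights each library by its reads. Coverage (log2, centred on the median gene) and log2 odds of unconverted A were fitted with limma. Adjustment was Benjamini-Hochberg over all features, with a threshold of 0.05. Same-numbered replicates of the 2 groups did not deviate together (correlations 0.0066, 0.0023, 0.0083 and 0.038 for sites, coverage, conversion and levels), so the numbers were not taken as pairs. Intervals are Wilson 95% and cover counting error only.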

Additional observations from a re-analysis of the deposited data

How the results depend on the processing

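None of the 10 genes was called under any alternative tried except the replicate block, and of their 3 tested sites those of Cdkn1b and E2f7 were called by Fisher's exact test on pooled reads alone. The replicate block, fitted although the numbers do not pair the samples, gave Ccnd2 an adjusted p of 0.0447 and E2f3 of 0.0446 (edgeR), and moved the genes called in site number from 834 to 1139, those with sites at 50% or more from 1 to 0 and the sites called in level from 53 to 0. Genes called in site number were 306 with at least 50 reads, 373 at a level of 20% or more, 57 scaled to the genic total (22 lower, 35 higher) and 57 with TMM. They were 0 without robust moderation, an alternative added after seeing the data, and 0 with DESeq2 1.42.0 among the 1074 genes it gave an adjusted p. In the main edgeR fit 3288 had an unadjusted p under 0.05. Calls of fits that leave out a library are not compared on any measure, since those fits hold 1 library in a group. For sites at 50% or more the count of 1, a gene called lower, became 1 called higher scaled to the genic total. With that scaling 4 of the 10 genes were below 0 and 6 above, against 7 and 2. The count became 22 at 40% or more, 0 with at least 50 reads and 0 without robust moderation. In site level the 53 calls became 531 with Fisher's exact test (296 lower, 235 higher). Coverage calls went from 0 to 15 without centring (9 lower, 6 higher). The ratio of listed sites, 0.690, was 0.964 scaled to the genic total and 0.619 to 0.761 leaving out a library; for sites at 50% or more, 0.757 became 1.05 and 0.649 to 0.908. The share of untreated-pair sites unlisted with dTAG13, 74.2%, was 71.4% with at least 50 reads and 87.5% at a mean level of 50% or more; leaving out a treated library, which can only keep or raise it, gave 77.4% to 87.1%. These were added after seeing the data. Causes were not tested, apart from those that the construction of an alternative gives. The listing limits restrict all levels to 10% or more.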
